A study of Mus musculus with 10 samples.

Results

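The genes described here are Notch3, Dtx1, Dtx4, Heyl, Myc, Polr1b and Nop58, a set of Notch pathway genes, Myc and genes of ribosome production in the mouse thymus. They are the features of the deposited value table annotated to exactly 1 of these symbols, and each symbol had 1 such feature, so the set is 7 of the 23332 features on the array. The 7 symbols were selected on results of these same samples, with their group differences known, so their levels and differences are given as a description, and no p-value is given for them. The array was measured in 10 normal thymi of C57BL6/129 hybrid mice aged 4 to 5 weeks. A pair of p53 genotypes was crossed with a pair of mdm2 genotypes. The p53(-/-)mdm2(+/+) and p53(246/246)mdm2(+/+) groups held 3 thymi each, and the p53(-/-)mdm2(-/-) and p53(246/246)mdm2(-/-) groups held 2 each. The first p53 genotype is called p53-null here and the other, homozygous for a mutant allele named 246, mutant p53. No group carried wild-type p53, so every mdm2 comparison was made on a background without it.

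Notch receptors are cut in the membrane when they bind a ligand on a neighbouring cell, and the freed intracellular part enters the nucleus and turns on target genes together with the DNA-binding protein RBPJ. In the thymus this signal commits progenitors to the T lineage and drives immature thymocytes, and Myc and Dtx1 are among the genes it is known to activate there. Myc is a transcription factor that raises cell growth, in large part by increasing ribosome production, and Polr1b and Nop58 belong to the machinery it acts on.

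RefSeq promoter windows of 300 bases, 250 before and 50 after the gene start on GRCm38.p6, were at hand for 4 of the 7 genes, namely Notch3, Dtx1, Polr1b and Nop58. They were searched on both strands for the core of the RBPJ site, TGGGAA, for the E-box that Myc binds with its partner Max, CACGTG, and for the GC box, GGGCGG, a promoter element of Sp1-type factors. The windows of Notch3, the gene with the largest difference between mdm2 genotypes among the 7, and of Polr1b and Nop58, the pair of ribosome production genes, are printed with every match in capitals.
Notch3, chr17:32166841-32167140, minus strand: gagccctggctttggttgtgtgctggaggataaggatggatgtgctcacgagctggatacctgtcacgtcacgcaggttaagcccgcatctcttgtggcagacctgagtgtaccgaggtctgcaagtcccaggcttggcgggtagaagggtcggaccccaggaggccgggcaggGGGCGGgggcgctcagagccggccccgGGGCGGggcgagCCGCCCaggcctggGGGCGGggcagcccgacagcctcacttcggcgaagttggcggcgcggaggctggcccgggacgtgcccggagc
Polr1b, chr2:129100746-129101045, plus strand: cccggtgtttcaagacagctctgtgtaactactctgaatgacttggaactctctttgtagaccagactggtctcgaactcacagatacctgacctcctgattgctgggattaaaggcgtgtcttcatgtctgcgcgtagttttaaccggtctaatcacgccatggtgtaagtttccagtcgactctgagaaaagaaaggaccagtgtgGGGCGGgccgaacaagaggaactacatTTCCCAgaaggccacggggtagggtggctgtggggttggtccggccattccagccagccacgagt
Nop58, chr1:59684756-59685055, plus strand: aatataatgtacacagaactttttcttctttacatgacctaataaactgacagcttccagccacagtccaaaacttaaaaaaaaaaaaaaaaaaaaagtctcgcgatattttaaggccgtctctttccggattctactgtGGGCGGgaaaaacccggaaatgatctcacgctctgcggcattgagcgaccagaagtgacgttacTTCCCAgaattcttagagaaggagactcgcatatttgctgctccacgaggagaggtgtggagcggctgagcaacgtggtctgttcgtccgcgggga

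The Notch3 window held 4 GC boxes, starting 76, 49, 37 and 23 bases before the gene start, and neither of the other motifs. The Polr1b window held 1 RBPJ core, on the reverse strand and starting 15 bases before the gene start, and 1 GC box. The Nop58 window likewise held 1 RBPJ core on the reverse strand, starting 46 bases before the gene start, and 1 GC box. The Dtx1 window, on chromosome 5, held 3 GC boxes and neither of the other motifs, and 2 of its GC boxes share a letter. No E-box was found in these 4 windows. Of all 32851 windows of the same length, 25.6% held the RBPJ core, 7.15% the E-box and 35.7% the GC box, so these letters are common, and a match describes the sequence and not a bound site.

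The median log2 signal per array lay between 6.10 and 6.26, and the lower quartile between 4.30 and 4.45. Mdm2, the gene deleted in the mdm2-null groups and the main ubiquitin ligase of p53, was at 9.47 to 9.62 in the 6 thymi with mdm2 and at 8.28 to 8.43 in the 4 without. It was thus lower in each mdm2-null thymus, but its signal there stayed above the array medians, and which part of the transcript the feature reads was not tested. Trp53, the gene of p53, was not analysed here. The thymocyte markers were bright in every sample, with a mean over the 12 measured of 14 listed of 11.10 to 11.19 with mdm2 and 10.87 to 11.16 without. Of these 12, 11 had a difference below 0 without mdm2, with a median of -0.16. None passed the threshold (0 called by limma), and 4 had an unadjusted p under 0.05. Over all features, 21.0% had such a p in the mdm2 comparison over both p53 genotypes. The liver markers stood apart: their mean over the 10 measured was 4.04 to 4.43 with mdm2 and 6.34 to 9.11 without, and all 10 passed the threshold of an adjusted p under 0.05 (limma, Benjamini-Hochberg over all features). Of the 8 adipocyte markers measured, all had a positive difference (median 1.26) and 3 passed, with a mean of 4.97 to 5.96 with mdm2 and 5.61 to 7.20 without. The 5 erythroid markers were likewise all positive (median 0.49), and 0 were called by limma, with 3 at an unadjusted p under 0.05. The array names in the labels carry 3 prefixes, and 0 of these hold both mdm2 genotypes, so mdm2 genotype and prefix cannot be told apart. The same holds for the p53 comparison in mdm2-null thymi, whereas the thymi with mdm2 share 1 prefix.

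**Figure D1:**
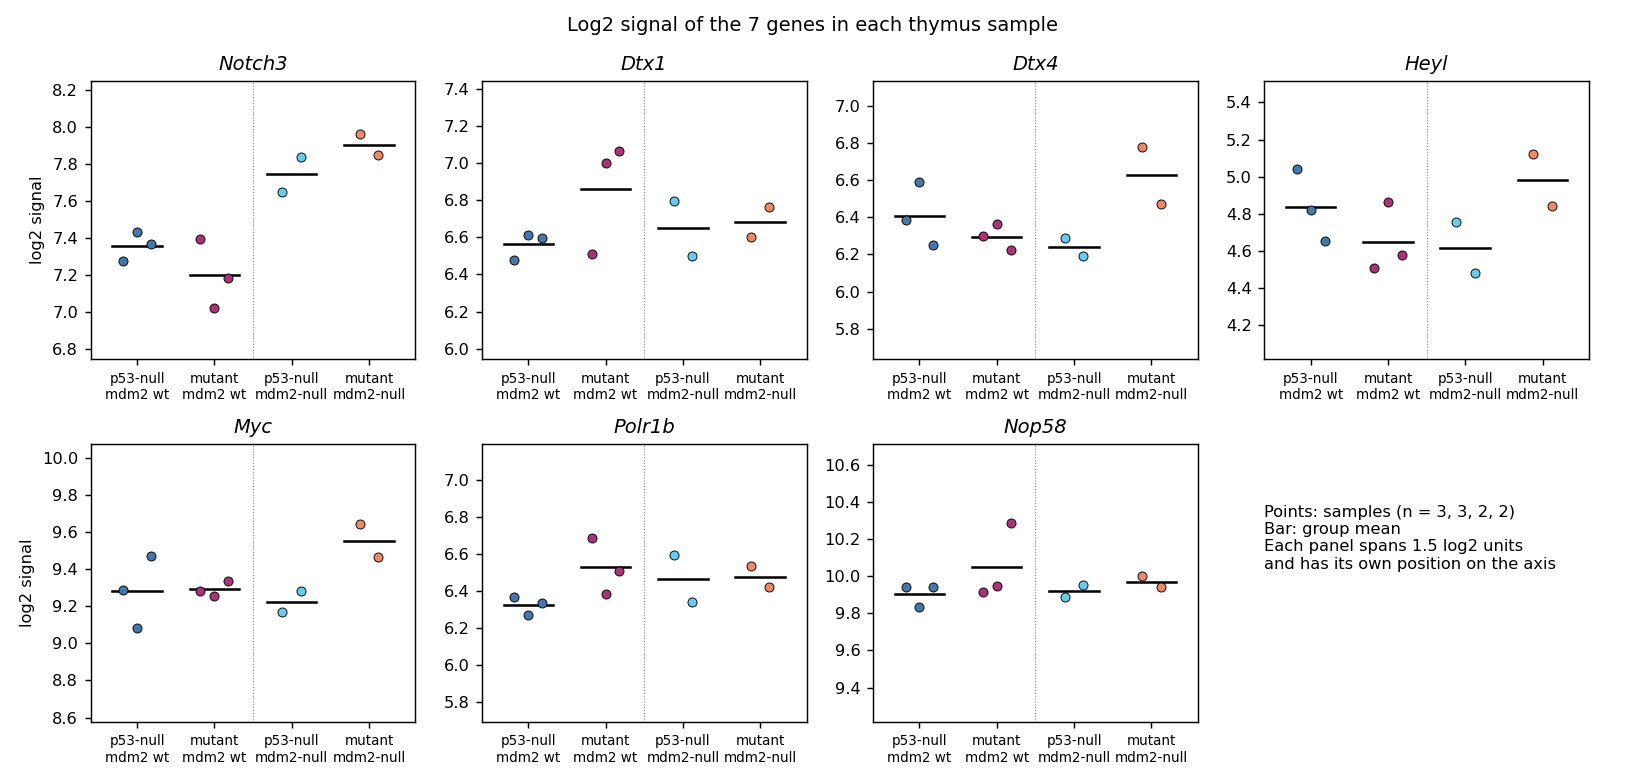
Log2 signal (y axis) of the 7 genes in each thymus, grouped on the x axis by p53 and mdm2 genotype, with points for samples and bars for group means (n = 3, 3, 2 and 2). Notch3 is the gene whose 4 mdm2-null thymi, from 7.65 to 7.96, all lie above the 6 thymi with mdm2, and the last group is the highest for Notch3, Dtx4, Heyl and Myc.

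Notch3 was the gene of the set that differed most with mdm2 genotype: it was 1.46-fold higher in thymi without mdm2. Notch3 is a Notch receptor of immature thymocytes, where it is also a target of Notch signalling, and of the pericytes and smooth muscle around blood vessels. With mdm2, its log2 signal was 7.28, 7.43 and 7.37 in the p53-null thymi and 7.39, 7.02 and 7.18 in the mutant p53 thymi. In its absence the signal was 7.65 and 7.84 in the p53-null thymi and 7.96 and 7.85 in the mutant p53 thymi. Every thymus without mdm2 was therefore above every thymus with it, and the mean went from 7.28 ± 0.15 (SD, n = 6) to 7.82 ± 0.13 (SD, n = 4). The log2 difference over both p53 genotypes was 0.54 (SE 0.11), and it passed the threshold in the fit over all features. Notch3 was the 1 gene of the 7 (14.3%) to do so, beside 3.87% of all 23332 features. It was also the 1 gene of the 7 without overlap between mdm2 genotypes, beside 8.45% of all features. As the set was chosen on these data, neither these shares nor the Notch3 call are evidence about it.

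The Notch3 call, given as a description of a gene selected on these data, stood close to the threshold. Leaving out replicate 2 of either group with mdm2, or replicate 1 of the p53-null thymi without mdm2, kept it. Leaving out any of the other 7 thymi ended it, with differences of 0.48 to 0.62 over the 10 fits. Within p53-null thymi the difference was 0.38 (SE 0.14), and within mutant p53 thymi it was 0.70 (SE 0.14). Neither passed the threshold, although the groups overlapped in neither p53 genotype. The difference between those values was 0.32 (SE 0.20) and did not pass. In the order of group means, the lowest pair, mutant p53 and p53-null with mdm2, overlapped. The step to the p53-null thymi without mdm2 was free of overlap. The upper pair touched, with 7.84 as the highest p53-null value and 7.85 as the lowest mutant value.

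**Figure D2:**
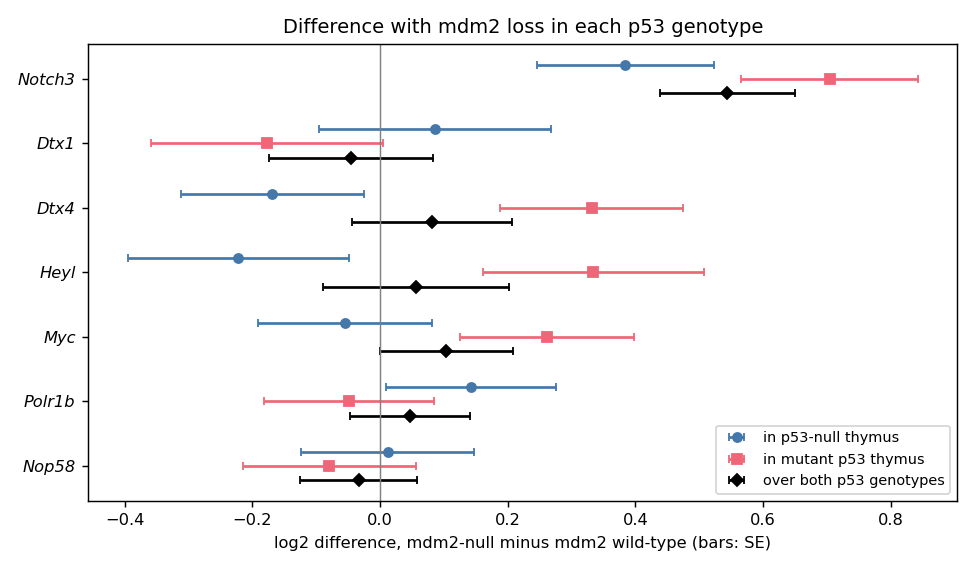
Log2 difference of each gene between mdm2-null and mdm2 wild-type thymi (x axis, bars for 1 SE), within p53-null thymi, within mutant p53 thymi and over both. Notch3 is positive in each, whereas Dtx4 and Heyl lie below 0 in p53-null thymi (-0.17 and -0.22) and above 0 in mutant p53 thymi (0.33 for each), a contrast that did not pass its own test.

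The other measured Notch receptors did not pass the threshold. Notch1, the receptor that commits progenitors to the T lineage, was at 9.71 ± 0.24 (SD, n = 6) with mdm2 and at 9.73 ± 0.08 (SD, n = 4) without, a difference of 0.02 (SE 0.13). Notch2, which acts in B cells and in vessels, was at 8.53 ± 0.14 with mdm2 and at 8.65 ± 0.12 without, a difference of 0.11 (SE 0.10). Neither passed the threshold, with adjusted p of 0.955 and 0.587 (limma). Notch4 was not measured on a feature of its own. In bulk tissue, fewer cells of a type and less RNA per cell cannot be told apart, so the level of a receptor is that of the whole thymus.

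Markers of the vessel cells that carry Notch3 went in different directions. Of the 13 measured pericyte and vascular smooth muscle markers, Rgs5, a pericyte marker, was lower without mdm2 by a log2 difference of -1.41 (SE 0.20, limma adjusted p = 0.0138). Vtn, which pericytes express and which the liver makes in quantity as plasma vitronectin, was higher by 1.74 (SE 0.33, limma adjusted p = 0.0286). The remaining 11, among them the pericyte receptor gene Pdgfrb at 6.27 ± 0.12 with mdm2 and 6.28 ± 0.13 without, did not pass. The mean over the 13 markers was 5.76 to 5.99 with mdm2 and 5.75 to 6.08 without, so it overlapped. This mean averages Rgs5 and Vtn, which moved in opposite directions, and the share of these cells in the tissue was not tested. In the endothelial list 1 of 10 markers passed, the receptor gene Tie1, at 4.90 ± 0.09 with mdm2 and 5.32 ± 0.16 without (limma adjusted p = 0.0382). The endothelial mean was 5.74 to 5.95 with mdm2. Without mdm2 it was 6.12 and 5.83 in the p53-null thymi and 6.14 and 6.17 in the mutant p53 thymi.

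None of the 12 markers of early, double negative thymocytes passed in this fit (0 called by limma, and 3 with an unadjusted p under 0.05, beside 21.0% of all features). Their mean was 6.33 to 6.60 with mdm2 and 6.08 to 6.59 without. The liver mean in thymi without mdm2 was 6.34 and 9.11 with p53-null and 7.42 and 8.99 with mutant p53, against Notch3 signals of 7.65, 7.84, 7.96 and 7.85 in the same order. Replicate 1 of the p53-null thymi was thus the lowest for both, while the thymus with the most Notch3 had a lower liver mean than the remaining pair. The adipocyte mean in the same 4 thymi was 7.11, 6.17, 5.61 and 7.20, so it was lowest in the thymus with the most Notch3. The erythroid mean was 4.22 to 4.54 with mdm2 and 5.75, 4.81, 4.51 and 4.69 in these 4 thymi. The thymocyte mean was 10.87, 11.16, 10.90 and 10.92 in these thymi, so 3 of them lay below all 6 thymi with mdm2. The part of any of these cell types in the Notch3 difference was not tested.

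**Figure D3:**
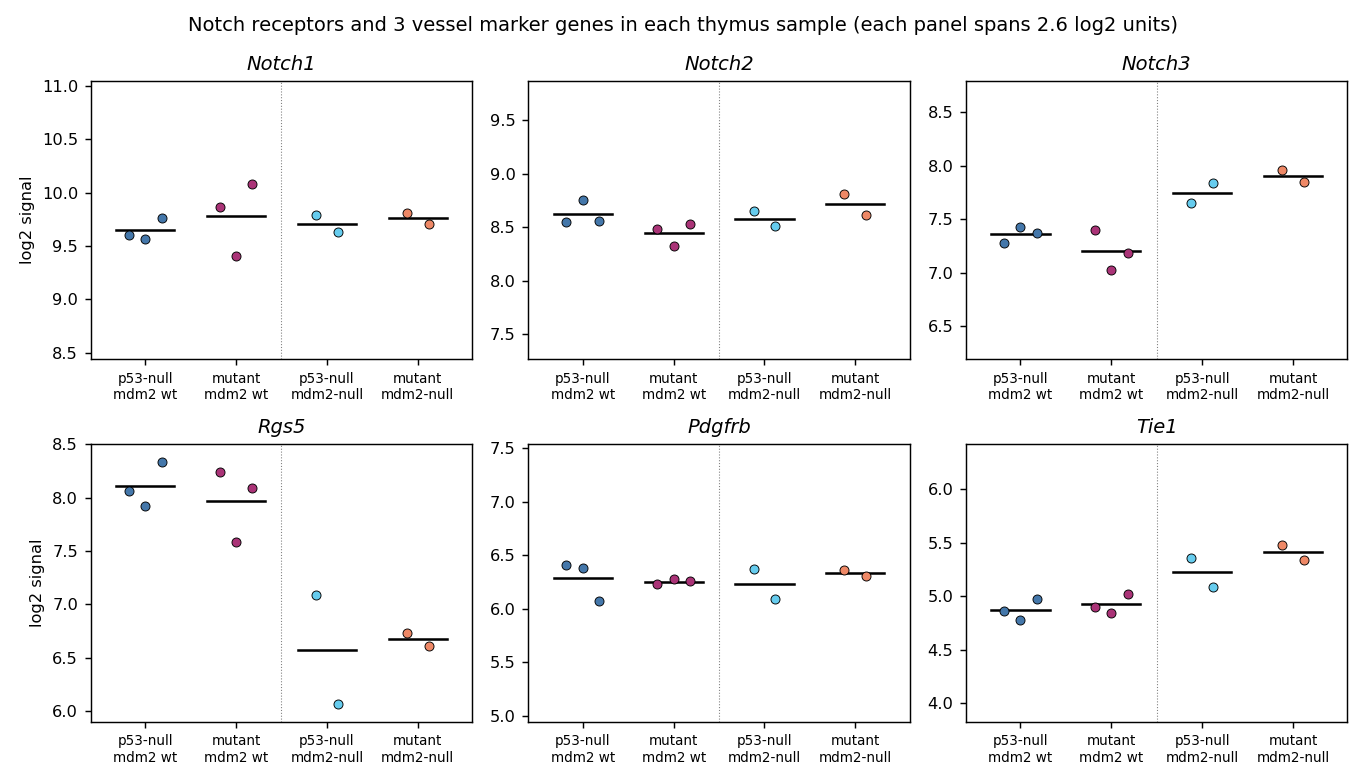
Log2 signal (y axis) of Notch1, Notch2 and Notch3 and of the vessel markers Rgs5, Pdgfrb and Tie1 in each thymus, grouped by genotype on the x axis, with points for samples and bars for group means. Without mdm2, Notch3 and Tie1 are higher, Rgs5 is lower, and Notch1, Notch2 and Pdgfrb overlap between mdm2 genotypes.

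Dtx4 was highest in mutant p53 thymi without mdm2, and Dtx1 in mutant p53 thymi with mdm2. Both encode Deltex proteins, cytoplasmic ubiquitin ligases that bind the intracellular part of Notch. The log2 signal of Dtx1 was 6.48, 6.62 and 6.60 in p53-null thymi with mdm2 and 6.51, 7.00 and 7.07 in mutant p53 thymi with mdm2. Without mdm2 it was 6.80 and 6.50 in p53-null and 6.60 and 6.76 in mutant p53 thymi. Mutant p53 replicates 2 and 3 with mdm2 were thus the highest of the 10 samples for Dtx1, while the groups overlapped in every order. Its difference with mdm2 loss was -0.05 (SE 0.13) over both p53 genotypes, 0.09 (SE 0.18) in p53-null and -0.18 (SE 0.18) in mutant p53 thymi.

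The log2 signal of Dtx4 was 6.38, 6.59 and 6.25 in p53-null thymi with mdm2 and 6.30, 6.37 and 6.22 in mutant p53 thymi with mdm2. In mdm2-null thymi it was 6.29 and 6.19 with p53-null, and 6.78 and 6.47 with mutant p53. The mutant p53 thymi without mdm2 lay above those with mdm2 and above the p53-null thymi without it, but overlapped with the p53-null thymi with mdm2. The difference with mdm2 loss was 0.33 (SE 0.14) in mutant p53 thymi, -0.17 (SE 0.14) in p53-null thymi and 0.08 (SE 0.12) over both. Each of the Dtx4 values in mutant p53 thymi rested on a pair of unequal samples: without mutant p53 mdm2-null replicate 1 the difference was 0.18, and without replicate 2 it was 0.49.

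Of the other Deltex genes measured, Dtx2 showed a difference of 0.00 (SE 0.09). Dtx3l, a Deltex-like ubiquitin ligase known for its partnership with Parp9 in interferon and DNA damage responses, was lower without mdm2. Its log2 signal was 9.05 ± 0.07 (SD, n = 6) with mdm2 and 8.59 ± 0.12 (SD, n = 4) without, a difference of -0.46 (SE 0.08, limma adjusted p = 0.0250). The call was kept in 5 of the 10 fits that left out 1 thymus, and lost (limma adjusted p 0.0532 to 0.0766) in those that left out replicates 2 or 3 of the p53-null group with mdm2, 1 or 3 of the mutant p53 group with mdm2, or 2 of the mutant p53 group without it.

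Heyl followed a pattern like that of Dtx4 at a low signal. It encodes a transcriptional repressor of the Hes and Hey family, induced by Notch in vascular smooth muscle among other cells. Its log2 signal was 5.04, 4.82 and 4.65 in p53-null thymi with mdm2 and 4.51, 4.86 and 4.58 in mutant p53 thymi with mdm2. Without mdm2 it was 4.75 and 4.48 in p53-null and 5.12 and 4.84 in mutant p53 thymi. The pairs of thymi without mdm2 did not overlap, while each of them overlapped with the group of its own p53 genotype with mdm2. The difference with mdm2 loss was -0.22 (SE 0.17) in p53-null and 0.33 (SE 0.17) in mutant p53 thymi, and 0.06 (SE 0.15) over both. Heyl was the dimmest of the 7 features, with 31.6% of all features dimmer, and its lowest value, 4.48, lay just above the lower quartile of the arrays (4.30 to 4.45). Of the other 6 measured genes of the family, Hes1, Hes5, Hes6, Hes7, Hey1 and Hey2, none passed in the mdm2 comparison (0 called by limma, and 0 with an unadjusted p under 0.05), with differences of -0.18 for Hes5 to 0.21 for Hes6.

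Myc was highest in mutant p53 thymi without mdm2. Its log2 signal was 9.29, 9.08 and 9.47 in p53-null thymi with mdm2 and 9.28, 9.25 and 9.34 in mutant p53 thymi with mdm2. Among mdm2-null thymi it was 9.17 and 9.28 with p53-null and 9.64 and 9.46 with mutant p53. The mutant p53 pair without mdm2 lay above the mutant p53 thymi with mdm2 and above the p53-null pair without it, but below the highest p53-null thymus with mdm2 in 1 of its 2 samples. The difference with mdm2 loss was 0.26 (SE 0.14) in mutant p53 thymi, -0.05 (SE 0.14) in p53-null thymi and 0.10 (SE 0.10) over both. The related genes Mycn and Mycl showed differences over both p53 genotypes of 0.19 (SE 0.12) and 0.39 (SE 0.16), and Max, the partner of all of them, of 0.00 (SE 0.10), with adjusted p of 0.405, 0.194 and 0.998 (limma).

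Polr1b and Nop58, both of ribosome production, differed little between the groups. Polr1b encodes a core subunit of RNA polymerase I, which transcribes ribosomal RNA. Its log2 signal was 6.37, 6.27 and 6.34 in p53-null thymi with mdm2 and 6.69, 6.38 and 6.51 in mutant p53 thymi with mdm2. Without mdm2 it was 6.60 and 6.34 in p53-null and 6.53 and 6.42 in mutant p53 thymi. With mdm2, the mutant p53 thymi lay just above the p53-null thymi, with a difference of 0.20 (SE 0.12), and without mdm2 the groups overlapped, with a difference of 0.01 (SE 0.15). The sign of that last difference rested on 1 thymus: it was 0.14 without p53-null mdm2-null replicate 1 and -0.12 without replicate 2.

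Nop58 encodes a core protein of the box C/D particles that guide methylation of ribosomal RNA. Its log2 signal was 9.94, 9.84 and 9.94 in p53-null thymi with mdm2 and 9.92, 9.95 and 10.29 in mutant p53 thymi with mdm2. In the thymi without mdm2 it was 9.89 and 9.95 for p53-null and 10.00 and 9.94 for mutant p53. All samples except mutant p53 mdm2 wild-type replicate 3 lay between 9.84 and 10.00, and the groups overlapped in every order. The differences with mdm2 loss were 0.01 (SE 0.14) in p53-null, -0.08 (SE 0.14) in mutant p53 and -0.03 (SE 0.09) over both.

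In the comparisons within 1 p53 genotype, 0 of the 7 genes passed the threshold. Mdm2 loss was called for 0.0214% of all features in p53-null thymi and for 0.0129% in mutant p53 thymi. Groups did not overlap for 1 of the 7 genes in p53-null thymi, Notch3, beside 26.0% of all features. In mutant p53 thymi they did not overlap for 3 of the 7, Notch3, Dtx4 and Myc, beside 36.1% of all features. The median difference of the 7 genes was 0.06 over both p53 genotypes, 0.01 in p53-null thymi and 0.26 in mutant p53 thymi, beside -0.02 over all features in each.

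Between mutant p53 and p53-null thymi, 0 of the 7 genes passed in any comparison, and limma called 0% of the 23332 features over both mdm2 genotypes, 0% with mdm2 and 0% without mdm2. An unadjusted p under 0.05 was reached by 593, 690 and 902 features (2.54%, 2.96% and 3.87% of all), and the plain linear model called 0 in each. Over both mdm2 genotypes the differences of the 7 genes were between -0.03 for Notch3 and 0.19 for Dtx1, and the p53 genotypes overlapped for each gene, beside 0.223% of features without overlap. With mdm2, they ranged from -0.19 for Heyl to 0.29 for Dtx1. Polr1b was the 1 gene without overlap there, beside 7.67% of features. Without mdm2, all 7 were positive, from 0.01 for Polr1b to 0.39 for Dtx4, and Notch3, Dtx4, Heyl and Myc did not overlap (4 of 7, beside 27.7% of features). These are pairs of 2 thymi, and the size of the p53 difference without mdm2 was 0.39 (SE 0.16) for Dtx4, 0.37 (SE 0.19) for Heyl, 0.33 (SE 0.15) for Myc and 0.16 (SE 0.15) for Notch3.

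The test of whether the p53 difference depended on mdm2 called 0% of the features. An unadjusted p under 0.05 was reached by 997 (4.27% of all), and the plain linear model called 0. The estimates for the 7 genes were 0.56 (SE 0.25) for Heyl, 0.50 (SE 0.20) for Dtx4, 0.32 (SE 0.20) for Notch3 and 0.32 (SE 0.19) for Myc. They were -0.26 (SE 0.26) for Dtx1, -0.19 (SE 0.19) for Polr1b and -0.09 (SE 0.19) for Nop58. None of these estimates passed the threshold, and the negative ones were about as large as their SE or smaller. Each estimate contains the p53 difference without mdm2, where p53 genotype and array name prefix cannot be told apart. Dtx1, a Notch pathway gene, had the same sign as the pair of ribosome production genes, but with SEs of this size those signs are not settled.

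Among themselves, the 7 genes did not vary as a block. Over the 10 thymi, Pearson's r between the pairs of genes ranged from -0.42 for Notch3 with Dtx1 to 0.79 for Dtx4 with Heyl, with a median of 0.12 over the 21 pairs. These values are a description over samples that share genotypes, and no test was made. With the group means taken out, r was 0.59 for Dtx4 with Heyl and -0.75 for Notch3 with Dtx1. The highest and lowest samples were 0.94 log2 units apart for Notch3 and 0.42 apart for Polr1b, and the spread within groups ran from 0.12 for Polr1b to 0.21 for Dtx1 (pooled SD).

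The genes whose levels were most like those of each gene, among the 14859 other genes with a feature of their own, were found by Pearson's r over the 10 thymi. For Notch3 they were Arhgap33 (0.97), Zbtb39 (0.96) and Slc36a1 (0.95), whose own differences with mdm2 loss were 0.55, 0.53 and 0.42. For Dtx4 they were Sorbs2, Gabrp and Unc13b (each 0.95), and for Heyl Gm5069 (0.95), Olfr1412 (0.93) and Nuak1 (0.92). For Dtx1 they were Dppa4 (0.94), Gpatch4 (0.90) and Olfr1208 (0.86), and for Myc Lrfn1 (0.91), Krt15 (0.88) and Zfp689 (0.87). Polr1b was most like Slc38a11, 2310057N15Rik (each 0.90) and Oscar (0.89), and Nop58 most like Rps6ka6 (0.89), Rimkla (0.88) and Acy3 (0.87). None of the 7 genes was among the nearest genes of another of the set. With 10 samples and this many genes, coefficients of this size are the top of a long list.

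The rest of the Notch, Myc and ribosome production genes was read from 11 lists of 201 genes, of which 150 were measured beside the 7. Over both p53 genotypes, 4 of the 150 were higher and 4 lower without mdm2, together 5.33% beside the 3.87% of all features, and their median difference was 0.02 beside -0.02. An unadjusted p under 0.05 was reached by 21.0% of all features in this comparison. As the lists too were chosen with earlier results of these data known, neither the called share nor the unadjusted counts given below are evidence about them. In each of the other comparisons 0 of the 150 were called by limma. A further list of 14 mitosis genes, 13 of them measured, was read beside these.

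**Figure D4:**
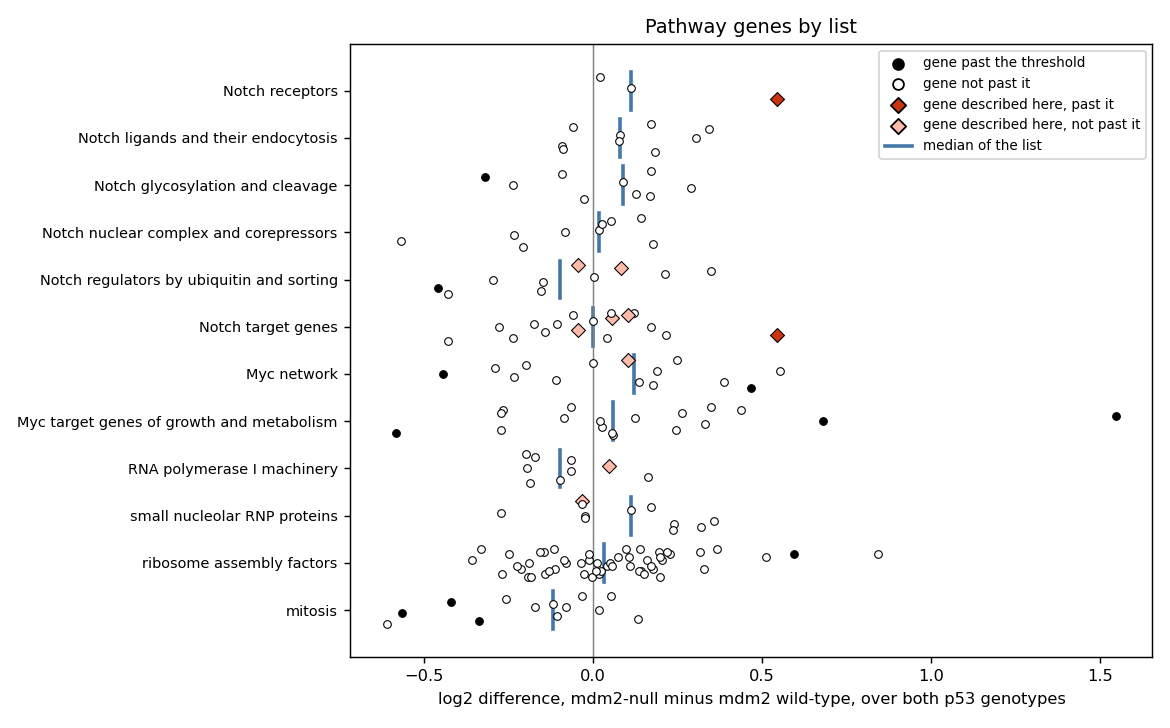
Log2 difference between mdm2-null and mdm2 wild-type thymi over both p53 genotypes (x axis) for the measured genes of these 11 lists and of the mitosis list (y axis), with filled symbols for genes past the threshold, diamonds for the 7 genes described here and a line for each list's median. The medians lie close to 0, and the largest difference is that of Ahcy, 1.55.

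Of the machinery that presents and cuts Notch, 1 of 18 measured genes passed. An unadjusted p under 0.05 was reached by 1 of 9 genes of the ligands and their endocytosis and by 3 of 9 of glycosylation and cleavage. Adam10, the protease that makes the ligand-induced cut in Notch, was at 9.83 ± 0.08 (SD, n = 6) with mdm2 and 9.51 ± 0.07 (SD, n = 4) without, a difference of -0.32 (SE 0.08, limma adjusted p = 0.0495). It lost the call in each of the 10 fits that left out 1 thymus. Not past the threshold were the gamma-secretase gene Psen2 at 0.29 (SE 0.08), Poglut1, which adds glucose to Notch, at -0.24 (SE 0.09), and Lfng, which adds N-acetylglucosamine to it, at 0.17 (SE 0.11). The same held for the ligand gene Jag2 at 0.30 (SE 0.14), the ligand gene Dll1 at 0.17 (SE 0.11), and Mib2 and Neurl1b, ubiquitin ligases of the ligands, at 0.34 (SE 0.10) and 0.18 (SE 0.12). Their adjusted p ran from 0.0877 for Psen2 to 0.449 for Dll1.

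In the nuclear complex 0 of 9 genes passed (1 had an unadjusted p under 0.05). The coactivator gene Maml3 was at 5.32 ± 0.16 with mdm2 and 4.75 ± 0.31 without, a difference of -0.57 (SE 0.15, limma adjusted p = 0.0613). The corepressor genes Tle3, Tle1 and Spen showed -0.21 (SE 0.12), -0.24 (SE 0.16) and 0.18 (SE 0.12). Among regulators by ubiquitin and sorting, 4 of 8 beside Dtx1 and Dtx4 had an unadjusted p under 0.05, and 1 passed the threshold, namely Dtx3l. Not past it were the ubiquitin ligase gene Itch at -0.30 (SE 0.09), the feedback inhibitor Nrarp at -0.43 (SE 0.13) and the Numb relative Numbl at 0.35 (SE 0.12). Among Notch target genes, 0 of 13 beside the members of the set passed (1 had an unadjusted p under 0.05), and their median was -0.06. Of these 13 genes, 5 had a difference above 0 and 8 below. Among the 8 were Nrarp, itself such a target, and Igf1r, at -0.24 (SE 0.13).

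In the Myc network 5 of 13 genes beside Myc had an unadjusted p under 0.05. Of the 13, 2 passed, in opposite directions. Both encode repressors that compete with Myc for Max. Mnt was at 5.94 ± 0.05 (SD, n = 6) with mdm2 and 6.41 ± 0.13 (SD, n = 4) without, a difference of 0.47 (SE 0.08, limma adjusted p = 0.0232). Mxd1 was at 8.98 ± 0.05 with mdm2 and 8.54 ± 0.15 without, a difference of -0.44 (SE 0.08, limma adjusted p = 0.0288). The Mnt call was kept in 6 of the 10 fits that left out 1 thymus and lost (limma adjusted p 0.0514 to 0.0743) in those that left out replicates 1 or 3 of the mutant p53 group with mdm2, or replicate 2 of either group without it. The Mxd1 call was kept in 2. Mlxipl, a glucose-responsive relative, and Mga, a Max-binding repressor, showed 0.55 (SE 0.17) and -0.29 (SE 0.10) without passing.

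Of 18 measured Myc target genes of growth and metabolism, 12 had a difference above 0 and 6 below. An unadjusted p under 0.05 was reached by 10 of the 18, beside 21.0% of all features. Past the threshold, 2 were higher and 1 lower. Ahcy, the hydrolase of S-adenosylhomocysteine and an abundant liver enzyme, rose from 5.87 ± 0.64 to 7.41 ± 0.23, a difference of 1.55 (SE 0.29, limma adjusted p = 0.0288). The liver and adipocyte markers above moved with mdm2 genotype in the same direction, and their part in the Ahcy value was not tested. Eif4e, the cap-binding translation factor, rose from 7.86 ± 0.29 to 8.54 ± 0.27 (0.68, SE 0.15, limma adjusted p = 0.0409). Tfrc, the transferrin receptor, fell from 9.36 ± 0.15 to 8.78 ± 0.25 (-0.58, SE 0.13, limma adjusted p = 0.0400). The calls of Ahcy, Eif4e and Tfrc were kept in 4, 2 and 1 of the 10 fits that left out 1 thymus. Cad, a multienzyme protein of pyrimidine synthesis, showed 0.35 (SE 0.09, limma adjusted p = 0.0537).

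The surroundings of Polr1b and Nop58 held 1 call. None of the 8 other measured genes of RNA polymerase I passed (0 called by limma, and 0 with an unadjusted p under 0.05), and 7 of them lay below 0. The large subunit gene Polr1a showed -0.20 (SE 0.10), Polr1e -0.17 (SE 0.12), the shared subunit gene Polr2e -0.20 (SE 0.11) and the initiation factor gene Taf1d -0.19 (SE 0.11). Of the 10 other genes of small nucleolar particles, 0 passed and 4 had an unadjusted p under 0.05. Nop56, which pairs with Nop58 in the box C/D particle, was at 10.70 ± 0.10 with mdm2 and 10.43 ± 0.06 without (-0.27, SE 0.08, limma adjusted p = 0.0821), so its mdm2 groups were separate where those of Nop58 overlapped. Gar1, of the box H/ACA particle, Rrp9 and the assembly factor gene Pih1d1 showed 0.32 (SE 0.14), 0.24 (SE 0.11) and 0.36 (SE 0.16).

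Of 52 ribosome assembly genes 1 passed and 16 had an unadjusted p under 0.05. Wdr36, a part of the particle that processes small-subunit RNA, was at 8.93 ± 0.13 (SD, n = 6) with mdm2 and rose to 9.53 ± 0.10 (SD, n = 4) without (0.59, SE 0.09, limma adjusted p = 0.0184). The call was lost in 2 of the 10 fits that left out 1 thymus, those without replicate 1 of the mutant p53 group with mdm2 (limma adjusted p = 0.0524) and without replicate 2 of the same p53 genotype lacking mdm2 (limma adjusted p = 0.0655). Utp14a and Nolc1 lay lower, at -0.33 (SE 0.09) and -0.36 (SE 0.10), and Mrto4 higher, at 0.84 (SE 0.23), without passing. In the mitosis list 5 of 13 genes had an unadjusted p under 0.05. The kinesin genes Kif20a, Kif11 and Cenpe were the 3 of 13 that passed, all lower. Their differences were -0.42 (SE 0.09), -0.34 (SE 0.07) and -0.57 (SE 0.13), with adjusted p of 0.0409, 0.0422 and 0.0435 (limma). The Kif20a call was kept in 1 of the 10 fits that left out 1 thymus, that without replicate 2 of the p53-null group lacking mdm2, and the Kif11 and Cenpe calls in 0. Nusap1, at -0.61 (SE 0.15), did not pass.

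In the p53 comparison over both mdm2 genotypes no list held a call. Differences were positive, so higher in mutant p53 thymi, for 46 of 52 ribosome assembly genes with a median of 0.07, for 17 of 18 Myc growth targets with 0.09, for 7 of 8 RNA polymerase I genes with 0.08, for 8 of 10 small nucleolar particle genes with 0.07 and for 12 of 13 mitosis genes with 0.09, beside a median of -0.0027 over all features. Polr1b at 0.13 (SE 0.09) and Nop58 at 0.11 (SE 0.09) lay in the same direction. In thymi without mdm2 the RNA polymerase I genes were positive in 3 of 8, with a median of -0.10. Genes of a list can move together by sample, so these counts are no test. The single genes with the smallest p in these lists were Gar1 at 0.39 (SE 0.14), Utp20 at 0.24 (SE 0.09), Nme1 at 0.25 (SE 0.11) and Ebna1bp2 at 0.20 (SE 0.09), each with an adjusted p of 1 (limma). In the Notch lists the corresponding genes were Tle1 at 0.36 (SE 0.16), Dll4 at 0.20 (SE 0.13) and Ncstn at -0.15 (SE 0.10), and in the Myc network Mxd3 at 0.28 (SE 0.15), also with an adjusted p of 1.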

How the data were processed

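RNA of 10 thymi was measured on Affymetrix whole-transcript arrays after rRNA reduction, per the labels' protocols. The deposited values are on a log2 scale, 1 per feature and array, as their range shows. Partek 6.5 and build mm8 are named in the submitters' processing notes, and the summary and normalization steps are not given in the sources used here. No detection calls were used, so dim features such as Heyl may be compressed, and the number of arrays limits the precision.

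The value table was used as deposited. All 23332 features were fitted with limma 3.58.1 in R 4.3.3, with an additive model of p53 and mdm2 genotype for the effects over both levels and 1 mean per group for the others, and p-values were adjusted over all features (Benjamini-Hochberg, threshold 0.05). A probe annotation named 14996 features with 1 symbol, 1019 with several and 7317 with none, and a gene with several features was read from the one with the highest mean. The 7 genes and all lists were chosen with earlier results of these data known. Named were the 7 genes, Mdm2, each called list gene and, in lists with fewer than 4 calls, the genes of smallest p up to 4 in the mdm2 and up to 2 in the p53 comparison over both levels. Some small families were given whole, and the 3 most alike genes were named for each of the 7. Alternatives were median centring, quantile normalization, removal of the dimmer 50% of features, a plain linear model, the replicate number as a block, fits to the groups compared alone or with 1 mean per group, and leaving out each thymus. The fit was run on simulated data with 200 features changed 2-fold or 4-fold and noise drawn independently for each value. It recovered 88% of the 2-fold and 99% of the 4-fold changes, and 6.5% of its calls were false. Smaller differences, such as that of Notch3, and noise shared between features were not simulated. Samples were not treated as paired by replicate number: of 13 same-numbered pairs, correlations of deviations from group means ran from -0.19 to 0.19, and 1 was over 0.1. In each mdm2-null group the deviations mirror each other, so these values cannot exclude an effect shared by same-numbered samples.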

Additional observations from a re-analysis of the deposited data

Results flagged for a closer look

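Nop58 in mutant p53 mdm2 wild-type replicate 3 had a log2 signal of 10.29 and stood apart from the other thymi. It was the highest of the 6 thymi with mdm2 and of the 5 mutant p53 thymi, and in both its gap to the next sample was above Dixon's critical value. In all, 28 sets of samples were checked for the 7 genes and 2 stood out, both through this thymus. Chance alone sets apart a sample in about 1 in 20 such sets.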

How the results depend on the processing

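The 1 called difference among the 49 computed for the 7 genes, that of Notch3 over both p53 genotypes, kept its direction under every alternative run. Of 770 alternative values of the 49 differences, 758 lay within 1 SD of the spread between replicates. The 12 that moved further were Dtx4 and Polr1b values when 1 mdm2-null thymus was left out. The Notch3 call held under median centring, quantile normalization, without the dimmer 50% of features, in the plain linear model and with 1 mean per group. As Notch3 was selected on these same data, this describes the fit and adds no support for the difference. With a replicate block, 0 of the 7 genes and 61 features were called in the mdm2 comparison over both p53 genotypes. Whether same-numbered samples share a block is not known. The number of called features in that comparison was 902, against 453 in the plain linear model and 114 to 776 with 1 thymus left out, with 0 to 1 of the 7 genes called. It was lowest without mutant p53 mdm2-null replicate 2. In p53-null thymi 5 features were called, against 13 without the dimmer 50% of features, 0 in a fit to the 2 groups alone and 3 to 62 with 1 thymus left out, the last without p53-null mdm2-null replicate 1. In mutant p53 thymi 3 were called, against 7 with quantile normalization, 143 without the dimmer 50% of features (1 of the 7 genes, Notch3), 5 with the replicate block, 8 in a fit to the 2 groups alone and 0 to 63 with 1 thymus left out, the last without either p53-null mdm2-null replicate. The p53 comparison with mdm2 gave 1 call in a fit to the 2 groups alone, and leaving out 1 thymus gave 0 to 1 there, 0 to 5 in the p53 comparison without mdm2 and 0 to 2 for the interaction of both genotypes. The cause of these changes was not tested. With 2 thymi in each mdm2-null group, a group left with 1 thymus was taken to vary like the others. Dimness limits Heyl most. The calls of list genes in the mdm2 comparison over both p53 genotypes were also read under all alternatives, those leaving out 1 thymus included. They were lost in 3 of 16 for Wdr36, 6 of 16 for Dtx3l, 5 of 15 for Mnt, 9 of 16 for Mxd1 and 8 of 16 for Ahcy. For Eif4e the call was lost in 11 of 16, and for Adam10, Tfrc, Kif11, Kif20a and Cenpe in 13 of 16 each.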

Other observations

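Rbpj, the DNA-binding partner of Notch, had a log2 signal of 3.65 ± 0.33 (SD, n = 6) with mdm2 and 3.79 ± 0.16 (SD, n = 4) without on its feature, under the lower quartile of the arrays (4.30 to 4.45). Whether that feature reads the main Rbpj transcript was not tested. In the p53 comparison over both mdm2 genotypes its difference was -0.15 (SE 0.17, adjusted p of 1 in limma).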
